A study of Mus musculus with 2 samples.

Results

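Endothelial cells of mouse colon tumours were described from single-cell RNA counts. The members were chosen by measured values, namely raw UMI counts. A barcode was taken as endothelial when under 20% of its UMIs (unique molecular identifiers, one per captured transcript) were mitochondrial, it had no UMI of Ptprc (the pan-leukocyte gene CD45), it had at least 3 UMIs of Cdh5, Emcn, Plvap and Kdr together, and its Col1a1 level was under 1000 CPM (UMIs scaled to the total of the barcode or sum). This rule gave 52 endothelial barcodes of 26063 in all, 28 of 13910 in the control library and 24 of 12153 in the antibody library. Host fibroblasts, used for comparison, had Col1a1 and Col3a1 at 1000 CPM or more each, under the same mitochondrial and Ptprc limits, and numbered 133 and 169. The mice carried tumours of CT26, a mouse colon carcinoma cell line in long use, which the design text places at the cecal junction while it also speaks of subcutaneous growth. From a tumour volume of 50 to 100 mm³, mice received anti-IgG (the control library) or SLC7A11-Ab (the antibody library), an antibody against the cystine importer SLC7A11, each at 10 mg/kg every 2 days. The labels give no mouse strain, age, sex or number of tumours per library, and name the cell type of both libraries as goblet cells. Of 7 goblet cell genes, Zg16 was the most frequent, with 169 and 73 UMIs in 1.18% and 0.58% of barcodes, Clca1 had 46 and 57 UMIs, and Muc2 had 6 in each library. The endothelial barcodes had no UMI of any of the 7, and the libraries are described here as mixed tumour tissue.

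Endothelial cells line blood vessels, where they control the passage of solutes and leukocytes, clotting and vascular tone. New tumour vessels grow from tip cells, which lead a sprout towards vascular endothelial growth factor (VEGF) and are marked by genes such as Apln, Esm1, Angpt2 and Dll4. Endothelial cells that sense interferon gamma express chemokines that recruit T cells, antigen presentation genes and the checkpoint ligand PD-L1. Veins and their activated endothelium carry the adhesion molecules through which leukocytes leave the blood.

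The genes that chose the barcodes are given as a description. The sum of the 4 marker genes ranged from 292 to 7624 CPM in the control barcodes, with a median of 3731 CPM, and from 90.3 to 6873 CPM with a median of 2839 CPM in the antibody barcodes. Cdh5, which encodes VE-cadherin of endothelial junctions, was seen in 28 of 28 and 19 of 24 barcodes, and Emcn, an endothelial sialomucin, in 26 and 17. Kdr, the main VEGF receptor, was seen in 25 and 18 barcodes, and Plvap, which forms the diaphragms of endothelial fenestrae, in 23 and 21. A marker sum of exactly 3 UMIs was found in 3 control and 4 antibody barcodes, of which 2 and 3 also held a UMI of a further endothelial gene (Pecam1, Egfl7, Esam, Cldn5, Eng, Flt1 or Ramp2). Just outside the limit, with exactly 2 UMIs, were 12 and 4 barcodes, of which 5 and 3 held such a UMI.

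The barcodes differed widely in depth. Control barcodes held 787 to 35976 UMIs with a median of 4768.5, and antibody barcodes 857 to 99632 with a median of 8740.5. The deepest antibody barcode gave 33.1% of the 301024 endothelial UMIs of its library at a marker level of only 90.3 CPM, and the deepest control barcode gave 19.99% of 179951 UMIs at 1056 CPM. Counts are summed over barcodes below, so those deep barcodes weigh most. Main values are therefore also given for the 25 control and 20 antibody barcodes with a marker sum of at least 1000 CPM, called marker-rich here. Scrublet, a doublet caller, marked 0 control and 1 antibody barcode. No endothelial barcode sequence occurred in the other library, although 39 barcodes of other cells did.

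**Figure D1:**
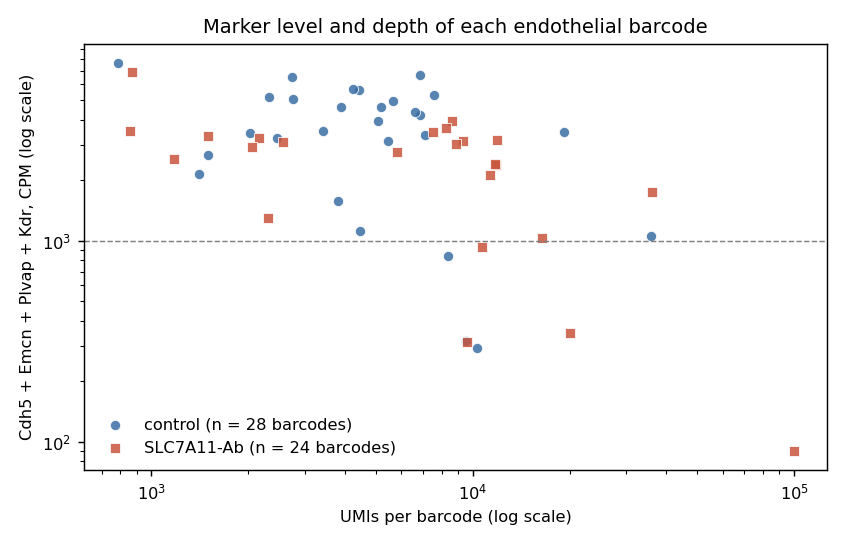
Each point is 1 endothelial barcode, with its UMIs (x axis, log scale) and the CPM of Cdh5, Emcn, Plvap and Kdr together (y axis, log scale), as circles for the 28 control and squares for the 24 antibody barcodes; the dashed line marks 1000 CPM. The deepest antibody barcode, with 99632 UMIs, has the lowest marker level, 90.3 CPM.

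Markers of some other cells, but not of all, were higher in the antibody endothelial barcodes. The 10 fibroblast markers summed to 556 CPM in control and 1209 CPM in antibody endothelial barcodes, against 19602 and 27608 CPM in the fibroblasts, and 8 antibody but 2 control barcodes held 3 or more of them. The 10 macrophage markers summed to 66.7 and 316 CPM, which includes Lyz2, a myeloid lysozyme, with 3 UMIs in 3 control barcodes and 44 UMIs in 17 antibody barcodes. Pericyte and smooth muscle markers summed to 545 and 468 CPM, of which 1 barcode gave 68.4% in control and 75.2% in the antibody library. Markers of neutrophils stood at 5.56 and 6.64 CPM and of T and NK cells at 5.56 and 26.6 CPM. The tumour cell markers summed to 122 and 110 CPM in 4 control and 8 antibody barcodes, mostly the keratin gene Krt20 with 13 and 30 UMIs, while Krt8, Krt19, Krt7, Cdh1 and Epcam were at 0. The 8 lymphatic genes summed to 245 and 140 CPM in 13 and 15 barcodes, mostly Nts with 28 and 15 UMIs and Pdpn with 5 and 21, and 1 control barcode reached 3783 CPM. The lymphatic genes Prox1, Ccl21a, Mmrn1 and Reln were at 0. The 4 Y-linked genes summed to 167 and 89.7 CPM, near the 97.1 and 103 CPM of the fibroblasts and above the 8.58 and 21.7 CPM of all remaining barcodes. What part RNA of other cells had in the results below was not tested.

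In the sums, though not in every barcode, genes outside the rule carried the endothelial label. Of 30 pan-endothelial genes, 26 had at least 20 UMIs over both libraries, and 24 of those 26 were at least 2-fold above the fibroblasts in both libraries, where 10.5% of all 4067 genes with that count were. Their median log2 ratio over fibroblasts was 7.40 in control and 7.22 in the antibody library, or 6.25 and 4.92 with the 10 and 12 genes that fibroblasts lacked set at a bound against a floor of 3 UMIs in the fibroblast sum. At least 8 of the 30 genes were seen in 25 of 28 control and 20 of 24 antibody barcodes. The deepest antibody barcode, with 33.1% of its library's endothelial UMIs, held 3 of the 30 and 171 UMIs of fibroblast markers. The control barcode with 10289 UMIs held 2 of the 30, and the antibody barcode with 2308 UMIs held 1. Here and below, log2 ratios compare CPM with 0.5 UMIs added to each sum, ranges are 95% intervals (exact binomial for shares, exact Poisson or conditional binomial for counts), and they cover counting error only. With 1 library per treatment no difference has a replicate check, and fewer cells and less RNA per cell cannot be told apart in summed counts.

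Pecam1, the platelet and endothelial adhesion molecule CD31, had 185 UMIs in 25 control barcodes (1028 CPM) and 154 UMIs in 21 antibody barcodes (512 CPM), against 3 and 5 UMIs in the fibroblasts. Egfl7, a secreted regulator of vessel formation, stood at 1195 and 538 CPM, which was 8.02 (6.91 to 9.79) and 7.59 (6.37 to 9.65) above fibroblasts on the log2 scale. Both genes were thus seen in most endothelial barcodes and in few fibroblasts. Gpihbp1, which holds lipoprotein lipase on the capillary wall, was absent from fibroblasts in both libraries and was at least 8.95 and 7.53 higher on the log2 scale, with 224 and 104 UMIs. Ptprb, the phosphatase of endothelial junctions, Mmrn2, an endothelial matrix protein, and Robo4, a guidance receptor of vessels, were at 0 UMIs in the fibroblasts too, with bounds of at least 7.43, 6.87 and 6.32 in the control library. Fabp4, a fatty acid carrier of capillary endothelium, had 1789 and 1622 UMIs (9942 and 5388 CPM), and 42 and 18 UMIs in the fibroblasts. Dll4, the Notch ligand of tip and arterial cells, and Esam, a junction molecule, were among the 20 genes furthest above the fibroblasts as well. Capillary genes thus stood beside junction genes among those 20.

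Factors of the ETS family, among them Erg, drive endothelial genes, and their core motif was looked for in the 250 bases before each gene's start in RefSeq promoters (GRCm38.p6). The letters AGGAAG, on either strand, were found in 7 of the 13 genes that had a promoter in the table among those 20, and in 32.3% of 27025 genes. The promoters of Emcn and of the first of 3 starts of Egfl7 are shown because they belong to a marker of the rule and to a gene outside it; capitals mark AGGAAG or its reverse complement. Emcn lies on the plus strand at chr3:137340828-137341077 and Egfl7 on the plus strand at chr2:26580833-26581082.
Emcn: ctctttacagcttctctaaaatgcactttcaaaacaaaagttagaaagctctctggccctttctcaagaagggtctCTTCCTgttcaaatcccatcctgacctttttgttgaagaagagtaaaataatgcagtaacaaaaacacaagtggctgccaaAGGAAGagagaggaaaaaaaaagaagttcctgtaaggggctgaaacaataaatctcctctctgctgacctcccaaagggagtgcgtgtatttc
Egfl7: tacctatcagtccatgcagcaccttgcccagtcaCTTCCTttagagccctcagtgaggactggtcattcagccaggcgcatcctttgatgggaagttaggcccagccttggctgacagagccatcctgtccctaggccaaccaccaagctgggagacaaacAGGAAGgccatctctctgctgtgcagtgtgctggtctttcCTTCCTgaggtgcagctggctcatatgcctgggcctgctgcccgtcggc

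The number of endothelial barcodes was compared first between treatments. They made up 0.202% (0.134 to 0.292%) of the barcodes under the mitochondrial limit in control and 0.199% (0.127 to 0.296%) in the antibody library, a log2 ratio of -0.02 (-0.87 to 0.82). The interval spans both a loss and a gain of close to 2-fold, so a difference of that size was not detectable with 52 barcodes. Barcodes without Ptprc numbered 12381 and 8396, and among them the endothelial share was 0.226% and 0.286%. Fibroblasts made up 0.959% and 1.40%, with a log2 ratio of 0.55 (0.21 to 0.88). There were 21.1 endothelial barcodes per 100 fibroblasts in control and 14.2 in the antibody library, a log2 ratio of -0.57 (-1.49 to 0.35) whose interval includes 0.

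Expression within the endothelial barcodes was compared next, as antibody over control. Of the 4067 genes with at least 20 UMIs, 472 (11.6%) were at least 2-fold higher and 453 (11.1%) at least 2-fold lower in the antibody library, and the median gene stood at -0.14. Scaled by the median of ratios, the median gene stood at -0.0074, and 544 genes were higher and 328 lower, so the near-equal split depended on the scaling. In the marker-rich barcodes 286 (9.79%) of 2921 were higher and 239 (8.18%) lower. General endothelial genes were among the lower ones: 16 of the 26 pan-endothelial genes were at least 2-fold lower, with a median of -1.10. Of these 26, 2 reached 20 UMIs only through the control library and so had to differ, and of the other 24, 14 were lower. In the marker-rich barcodes 5 of 26 were lower, with a median of -0.52. Pecam1 was lower by a log2 ratio of -1.01 (-1.32 to -0.69) in all barcodes and by -0.32 in the marker-rich ones, and the mean over barcodes of its CPM was nearly equal in both libraries; the log2 ratio of these means was 0.0094. The general endothelial level therefore depended on which barcodes were summed, and the lists below are read beside it. Ramp2, a co-receptor of adrenomedullin, and Cldn5, a tight junction protein, went the other way, at 0.66 (0.24 to 1.11) and 1.13 (0.15 to 2.35), but both were higher outside the endothelium too, at 3.28 and 2.00.

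Tip cell genes were lower in the antibody library. Of the 15 on the list, 14 could be compared, 12 were at least 2-fold lower and 1 was higher, with a median log2 ratio of -1.82. Of these 14, Adm and Cxcr4 reached 20 UMIs only through the control library and so had to differ. Of the other 12, 10 were lower, where 11.1% of all 4067 genes were. The same 14 genes had a median of 0.00 in fibroblasts. That median includes genes scarcely seen there, such as Dll4 with 0 UMIs in both libraries and Trp53i11 with 2 and 0. In the marker-rich barcodes 11 of 14 were lower with a median of -1.59. When each barcode weighed the same the median was -1.02. Per barcode, the list's summed level ran from 421 to 25974 CPM with a median of 4667 in the control, and from 0 to 12667 CPM with a median of 1595 in the antibody library. The ranges overlapped, with 12 of 28 control and 4 of 24 antibody barcodes above 5000 CPM. Against the pan-endothelial genes of the same barcodes there were 46.6 tip gene UMIs per 100 in control and 26.6 in the antibody library (log2 -0.81, -0.997 to -0.62). In the marker-rich barcodes these were 45.4 and 18.4 (log2 -1.30, -1.52 to -1.09).

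Angpt2, the antagonist of the Tie2 receptor that loosens vessels, had 125 UMIs in 17 control barcodes (695 CPM) and 35 UMIs in 9 antibody barcodes (116 CPM). Its log2 ratio was -2.56 (-3.16 to -2.03), or -2.14 in the marker-rich barcodes. Apln, the apelin peptide of sprouting endothelium, had 72 UMIs in 13 and 17 UMIs in 7 barcodes, at -2.79 (-3.68 to -2.05). Both were thus seen in fewer antibody barcodes although those were deeper. Esm1, a proteoglycan of VEGF-exposed tip cells, was seen in 22 of 28 and 11 of 24 barcodes, with 1173 and 478 CPM and a log2 ratio of -1.29 (-1.61 to -0.98). A single barcode gave 51.4% of its antibody UMIs, the ratio was -2.09 in the marker-rich barcodes, and the remaining barcodes of the libraries outside the endothelium also held Esm1, at 652 and 538 CPM. Dll4 was seen in 20 and 10 barcodes, at -1.86 (-2.69 to -1.10), and was at 0 UMIs in the fibroblasts of both libraries. After each barcode was thinned to 1000 UMIs, which left 27 control and 22 antibody barcodes, Dll4 was seen in 11 and 2, Esm1 in 13 and 3, and Angpt2 in 8 and 4. Apln was then seen in 4 and 3 barcodes, too few to show a difference.

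Further tip genes rested on fewer barcodes. Pgf, a VEGF family ligand, had 90 UMIs in 9 and 16 UMIs in 4 barcodes, at -3.20 (-4.10 to -2.46), and was also lower in fibroblasts, at -3.31. Adm, the vessel-dilating peptide adrenomedullin, had 73 UMIs in 9 and 8 UMIs in 4 barcodes, at -3.85 (-5.20 to -2.88), but at -0.82 when each barcode weighed the same. Cxcr4, the receptor that guides tip cells, had 19 and 3 UMIs, at -3.22 (-5.80 to -1.64), and Trp53i11 had 74 and 19 UMIs, at -2.68 (-3.51 to -1.96). The guidance receptor gene Unc5b, at -1.62, and the laminin and nidogen genes Lama4 and Nid2, at -1.79 and -1.68, were lower too. Insr, the insulin receptor gene, had a ratio of -0.78. Plaur, the urokinase receptor, was the only one of the 14 that was at least 2-fold higher, at 1.09 (0.33 to 1.99), with 54.8% of its antibody UMIs in 1 barcode and a ratio of -0.19 in thinned barcodes.

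**Figure D2:**
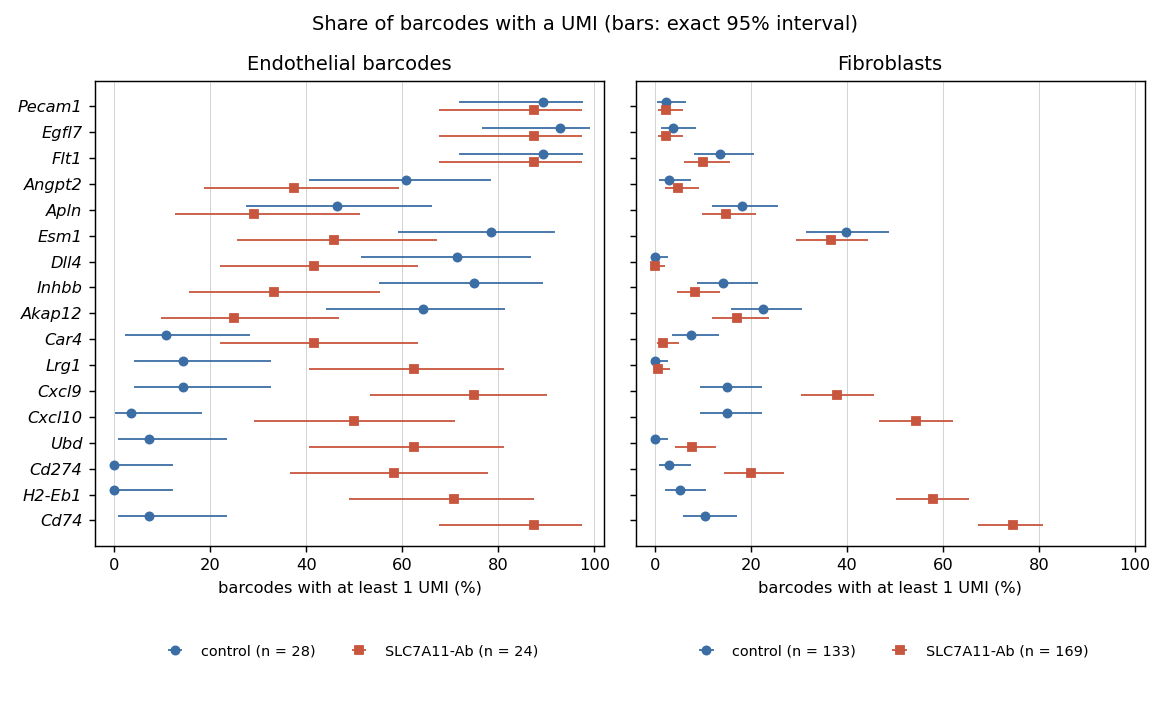
Share of barcodes with at least 1 UMI of each gene (x axis, percent; bars are exact 95% intervals) in the endothelial barcodes (left) and the fibroblasts (right), as circles for control and squares for antibody. Esm1 was seen in 22 of 28 and 11 of 24 endothelial barcodes and Cd74 in 2 of 28 and 21 of 24, while Pecam1 was seen in 25 of 28 and 21 of 24.

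Outside the tip list, the genes named by rule for the lowest ratios had varied functions. Igfbp3, a secreted binding protein of insulin-like growth factors, had 791 UMIs in 23 control barcodes (4396 CPM) and 165 UMIs in 13 antibody barcodes (548 CPM), at -3 (-3.25 to -2.76), and stood at 0.26 in fibroblasts. Inhbb, an activin subunit, was seen in 21 and 8 barcodes, at -3.34 (-4.40 to -2.50). Akap12, a scaffold of protein kinase A, was seen in 18 and 6 barcodes, at -3.78 (-5.24 to -2.74). Each of these 3 genes was seen in a smaller share of the antibody than of the control barcodes, from 54.2% against 82.1% for Igfbp3 to 25% against 64.3% for Akap12. Nes, the filament protein nestin, had 46 and 10 UMIs, at -2.89, and Plod1, a collagen-modifying enzyme, had 48 and 12 UMIs, at -2.70. Kcne3, a potassium channel subunit, stood at -3.40 (-4.75 to -2.39) but rested on 10 and 3 barcodes, of which 1 gave 47.2% of the control UMIs. Airn, a non-coding RNA that overlaps Igf2r on the opposite strand, had 61 and 11 UMIs, at -3.16 (-4.29 to -2.27), and reads of such overlapping genes may be confused where counting ignores strand. The adhesion receptors Adgrl4 and Adgrf5 stood at -2.56 and -2.12, and Afap1l1, an actin-linked protein, at -2.33, or at 0.30 in thinned barcodes.

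The vessel wall lists gave smaller differences. Beside them stand the pan-endothelial medians of -1.10 in all barcodes and -0.52 in the marker-rich ones. Of all 4067 genes, 11.1% were at least 2-fold lower. Of 13 basement membrane genes, 7 were at least 2-fold lower and 0 higher, with a median of -1.06, or 4 lower and a median of -0.67 in the marker-rich barcodes. Sparc, a matricellular protein, had 2253 and 1295 UMIs, at -1.54 (-1.64 to -1.44), or -1.12 in the marker-rich barcodes, and stood at 0.05 in fibroblasts. The type IV collagen chains Col4a1 and Col4a2 stood at -0.91 (-1.17 to -0.66) and -1.24 (-1.51 to -0.97). These 3 genes were seen in 21 or more barcodes of each library. Of 5 VEGF ligand and receptor genes, 2 were lower and 0 higher: Flt1, the decoy VEGF receptor, at -1.07 (-1.39 to -0.76), and Pgf, while Nrp1, a VEGF co-receptor, stood at -0.97. Flt1 was within 2-fold at -0.53 in the marker-rich barcodes, where 1 of the 5 was lower, and the median went from -0.97 to -0.38. Of 7 junction genes, 4 were lower, among them Ctnnb1, which encodes beta-catenin, at -1.49, and Gja1, the connexin 43 gene, at -1.37, and Cldn5 was higher. Among the marker-rich barcodes 2 of the 7 were lower, and the median went from -1.05 to -0.49. Ednrb, the endothelin receptor B, had 43 UMIs in 12 control barcodes and 4 UMIs in 3 antibody barcodes, at -4.02 (-6.11 to -2.71), and 11 and 0 UMIs in fibroblasts. Capillary genes were mostly within 2-fold, with 1 of 10 higher, 1 lower and a median of -0.70, or -0.06 in the marker-rich barcodes. Of these 10, Car4, the higher one, reached 20 UMIs only through the antibody library and 1 gene only through the control library, so both had to differ. Of the other 8, 0 were higher and 1 was lower. Fabp4 stood at -0.88 and Cd36, a fatty acid receptor, at -0.13 (-0.70 to 0.47). Gpihbp1 was the lower one, at -1.85.

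Several venous genes were higher, whereas leukocyte adhesion genes as a list were mixed. The 10 venous genes together stood at 750 CPM in control and 1262 CPM in antibody barcodes. Of the 7 that reached 20 UMIs, 5 were at least 2-fold higher and 0 lower, but 3 of the 7 reached that number only through the antibody library and so had to differ, and of the other 4, 3 were higher. Of 7 leukocyte adhesion genes, some of them also venous, 3 were higher and 2 lower, with a median of -0.28, or 2 of 5 higher and -0.47 in the marker-rich barcodes. Of these 7, 1 reached 20 UMIs only through the antibody library and so had to differ, and of the other 6, 2 were higher and 2 lower. Of all 4067 genes, 11.6% were at least 2-fold higher and 11.1% lower. The lower ones were Icam2, at -1.18, and Mcam, at -1.35. Lrg1, a glycoprotein of inflamed and venous endothelium, had 7 UMIs in 4 control barcodes (38.9 CPM) and 85 UMIs in 15 antibody barcodes (282 CPM), at 2.77 (1.75 to 4.22). It was nearly absent elsewhere, with 0 and 1 UMI in the fibroblasts and 0.18 and 2.55 CPM over all barcodes outside the endothelium. Selp, the P-selectin on which leukocytes roll, had 8 and 52 UMIs, at 1.88 (0.87 to 3.24), but in 3 and 5 barcodes, of which 1 gave 75% and 57.7%. Vcam1, an integrin ligand for leukocytes, had 20 and 97 UMIs in 9 and 11 barcodes, at 1.51 (0.83 to 2.31). Thinned to 1000 UMIs, Vcam1 was seen in 2 of 27 and 8 of 22 barcodes. The venous regulator Nr2f2, at 1.08 (0.04 to 2.38), was at -0.19 in thinned barcodes, and Icam1, another integrin ligand, had 4 and 18 UMIs, at 1.30 (-0.17 to 3.45). Sele, E-selectin, showed no such difference, with 10 and 14 UMIs and -0.28 (-1.53 to 1.07). Car4, the carbonic anhydrase of capillary walls, had 5 UMIs in 3 and 101 UMIs in 10 barcodes, at 3.46 (2.32 to 5.25), while fibroblasts had 20 and 6 UMIs. The Lrg1 ratio over all barcodes outside the endothelium was 3.81, so its direction was not particular to the endothelium.

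Interferon gamma response genes were higher in the antibody library, in the endothelium as in the other cells. The 24 genes together stood at 1656 CPM in control and 6498 CPM in antibody barcodes. Of the 19 that reached 20 UMIs, 15 were at least 2-fold higher and 0 lower, with a median of 1.66, or 10 of 16 and a median of 1.62 in the marker-rich barcodes. Of these 19, 7 reached that number only through the antibody library and so had to differ. Of the other 12, 8 were higher, where 11.6% of all 4067 genes were. The 5 genes that did not reach it held 3 and 27 UMIs. The same genes had medians of 1.83 in fibroblasts and 2.72 over all barcodes outside the endothelium. Subtracting the latter gene by gene left a median of -1.17, so the endothelial ratio was below that of the remaining library. Per barcode the list's summed level ran from 0 to 8165 CPM with a median of 1348 in the control, and from 1167 to 26881 CPM with a median of 4244 in the antibody library. All 24 antibody barcodes but 17 of 28 control barcodes were at 1000 CPM or more.

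The chemokines that draw T cells through CXCR3 stood out within this list. Cxcl9 had 16 UMIs in 4 control barcodes (88.9 CPM) and 421 UMIs in 18 antibody barcodes (1399 CPM), at 3.93 (3.26 to 4.80). All barcodes outside the endothelium held 4.45 and 153 CPM and the fibroblasts 158 and 704 CPM, so in the antibody library the endothelial level was above both. Cxcl10 had 1 UMI and 132 UMIs in 1 and 12 barcodes, at 5.72 (3.80 to 11.62), near the level outside the endothelium, with 439 against 528 CPM in the antibody library. Cxcl11 had 4 and 87 UMIs in 2 and 9 barcodes, at 3.54 (2.29 to 5.61). Fewer antibody barcodes held Cxcl10 and Cxcl11 than Cxcl9. Ubd, the ubiquitin-like modifier FAT10, had 7 UMIs in 2 and 318 UMIs in 15 barcodes, at 4.67 (3.70 to 6.09). Its antibody level was 1056 CPM in the endothelium, 13.1 CPM in fibroblasts and 32.1 CPM over all barcodes outside the endothelium. Cd274, which encodes PD-L1, had 0 UMIs in control and 43 UMIs in 14 antibody barcodes, at least 3.10 higher on the log2 scale, and a control share of 0 of 28 allows up to 12.3% of barcodes with a UMI (exact upper bound). Thinned to 1000 UMIs, Cd274 was seen in 0 of 27 and 3 of 22 barcodes. Gbp2 and Gbp4, guanylate binding proteins that act against intracellular microbes, stood at 3.38 (2.13 to 5.45) and 1.76 (1.16 to 2.46), the GTPase gene Iigp1 at 2.12, and the transcription factor gene Irf1 at 1.17. Reads of near-identical guanylate binding proteins and immunity-related GTPases may have been split between copies. Among genes known mainly from the type I interferon response, 1 of 13 was at least 2-fold higher and 0 lower. Of these 13, 1 reached the count needed for a ratio only through the antibody library and 1 only through the control library. Both therefore had to differ. Of the other 11, 0 were higher and 0 lower. The direction of the list's median depended on the weighting. It was -0.12 in all barcodes, 0.04 in the marker-rich ones, 0.18 without the deepest barcode of each library and 0.90 with equal weight per barcode, and stood at 0.50 in fibroblasts and 1.04 outside the endothelium. The difference between these lists was not tested. Isg15 stood at -0.19 (-0.51 to 0.13). Rsad2 was the higher one, at 3.09 (1.43 to 6.49) on 2 and 35 UMIs, and was the gene that passed only through the antibody library.

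**Figure D3:**
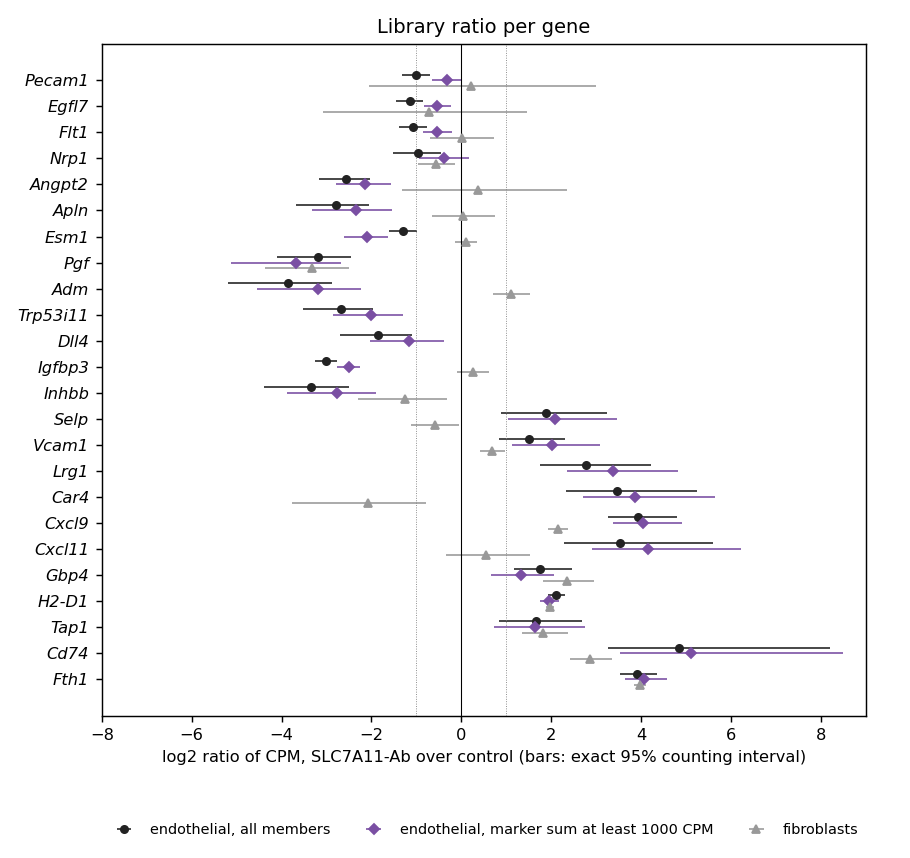
Log2 ratio of CPM, antibody over control (x axis; bars are exact 95% counting intervals, cut at the axis limits), for endothelial barcodes (circles), marker-rich endothelial barcodes (diamonds) and fibroblasts (triangles, left out where both sums held 3 UMIs or fewer). Tip genes such as Angpt2 (-2.56) and Apln (-2.79) lie left of 0 in the endothelium but not in fibroblasts (0.36 and 0.04), while Cxcl9 (3.93), H2-D1 (2.10) and Fth1 (3.91) lie right of 0 in each.

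The interferon-stimulated response element (GAAA, any 2 bases, GAAA) was found on either strand in 11 of the 17 interferon gamma response genes with a RefSeq promoter in the table, and in 3.46% of all 27025 genes. The gamma-activated sequence, spelled TTCNNNGAA and free to overlap the former, was found in 8 of the 17 and in 8.13% of all. Of the 11 tip genes in the table, 0 held the former and 1 the latter. The windows of Cxcl10 and Gbp2 are shown because both genes were among those with a high ratio; capitals mark this element or its reverse complement. Cxcl10 lies on the minus strand at chr5:92348890-92349139 and Gbp2 on the plus strand at chr3:142620413-142620662, in GRCm38.p6.
Cxcl10: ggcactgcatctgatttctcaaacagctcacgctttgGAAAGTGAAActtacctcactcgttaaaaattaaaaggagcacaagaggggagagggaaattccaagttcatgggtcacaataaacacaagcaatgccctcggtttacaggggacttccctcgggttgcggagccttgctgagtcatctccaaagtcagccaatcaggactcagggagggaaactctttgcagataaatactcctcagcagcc
Gbp2: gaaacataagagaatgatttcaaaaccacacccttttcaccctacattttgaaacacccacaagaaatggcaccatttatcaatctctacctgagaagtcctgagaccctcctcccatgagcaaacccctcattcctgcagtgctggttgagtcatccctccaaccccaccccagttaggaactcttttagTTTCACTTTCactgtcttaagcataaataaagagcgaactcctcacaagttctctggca

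Antigen presentation genes were higher as well. Of 13 genes of the MHC class I pathway, 8 were at least 2-fold higher and 0 lower, with a median of 1.08, or 5 of 13 and 0.89 in the marker-rich barcodes; fibroblasts had a median of 1.09 and all barcodes outside the endothelium 1.97. H2-K1 and H2-D1, the classical heavy chains, were seen in 27 or more control and all 24 antibody barcodes, at 1.60 (1.43 to 1.77) and 2.10 (1.92 to 2.30). Reads may be shared between such similar heavy chain genes. B2m, their light chain, was within 2-fold at 0.26 (0.14 to 0.39), and Tap1, the peptide transporter, stood at 1.66 (0.84 to 2.68). The list's summed level per barcode had a median of 9348 CPM in control and 20446 CPM in the antibody library, with ranges of 3358 to 17749 and 6954 to 36689 CPM.

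The 7 MHC class II genes together had 8 UMIs in control (44.5 CPM, 19.2 to 87.6) and 315 UMIs in antibody barcodes (1046 CPM, 934 to 1169). A UMI of any of them was seen in 6 of 28 and 23 of 24 barcodes. The 4 genes that reached 20 UMIs did so only through the antibody library, so their number and median are not given as a result. Cd74, the class II chaperone, had 2 UMIs in 2 control barcodes and 119 UMIs in 21 antibody barcodes, at 4.84 (3.27 to 8.21). H2-Eb1, a class II beta chain, had 0 and 71 UMIs, in 17 antibody barcodes, at least 3.82 higher. H2-Aa and H2-Ab1 stood at 2.86 (1.57 to 4.94) and 3.38 (1.74 to 6.78). The antibody levels were below those over all barcodes outside the endothelium, with 395 against 1126 CPM for Cd74 and 236 against 563 CPM for H2-Eb1. Lyz2, which endothelial cells should lack, was seen in 10.7% and 70.8% of endothelial barcodes, at 16.7 and 146 CPM against 663 and 823 CPM outside the endothelium, and in 27.8% and 68.0% of fibroblasts. The share with Cd74 was 7.14% and 87.5%, below that of Lyz2 in control and above it in the antibody library. Median depths were 4768.5 and 8740.5 UMIs, and the part of free RNA in the class II UMIs was not tested.

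Other genes with high ratios were shared with the rest of the library or rested on few barcodes. Among the 15 highest named by rule, H2ax, a histone variant, had 0 and 95 UMIs, at least 4.24 higher, and Pfn1, the actin-binding profilin, stood at 3.06 (2.67 to 3.48), while fibroblasts had 4.35 and 3.63. Akr1c18, a steroid-converting reductase, had 0 and 68 UMIs, of which 1 barcode gave 77.9%, and 1 barcode gave 90.5% of the 63 antibody UMIs of the chemokine gene Ccl6. Cryab, a small heat shock protein, had 0 and 60 UMIs in 5 barcodes, and the chemokine genes Cxcl2 and Ccl7 had 110 and 101 antibody UMIs in 6 and 7 barcodes. Few barcodes thus carried these 5 genes. The barcode that gave most Ccl6 UMIs also gave 51.5% of the antibody Ccl7 UMIs. It held 2308 UMIs, with 3 of Kdr and 0 of Cdh5, Emcn, Plvap and Pecam1, and counted as marker-rich at 1300 CPM. Its macrophage markers stood at 5633 CPM, the highest of any endothelial barcode, and whether it was endothelial was not tested. The immediate early genes Junb and Ier2 stood at 5.45 (4.35 to 7.22) and 5.26 (4.05 to 7.31), and at 5.08 and 3.51 in fibroblasts, whereas Fos stood at -0.64 (-0.86 to -0.42). Of 13 dissociation stress genes 4 were higher, with a median of 0.59. Of these 13, 3 reached the count needed for a ratio only through the antibody library and so had to differ. Of the other 10, 2 were higher, where 11.6% of all 4067 genes were.

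The target of the antibody was scarcely measured in the endothelium. Slc7a11 had 2 UMIs in control and 3 in the antibody library, both at or under the floor, and 15 and 21 in the fibroblasts, so no ratio is given for the endothelium. Its partner subunit Slc3a2 had 14 UMIs in 9 and 94 UMIs in 20 barcodes, at 1.96 (1.19 to 2.93), with 1.38 in fibroblasts. Fth1, the ferritin heavy chain that stores iron, had 53 and 1345 UMIs, at 3.91 (3.53 to 4.35), and the same ratio in fibroblasts within counting error, at 3.98. Gpx4, the peroxidase that guards against ferroptosis, had 35 and 34 UMIs, at -0.78 (-1.51 to -0.06). Over the 9 genes of cystine transport, glutathione and ferroptosis that could be compared the median was -0.11, with Slc3a2 and Fth1 the 2 that were at least 2-fold higher. Hypoxia and glycolysis genes had a median of -0.19 over 16 genes, with 2 higher and 2 lower. Of these 16, 1 reached 20 UMIs only through the antibody library and 1 only through the control library, so both had to differ. Of the other 14, 1 was higher and 1 lower. Of all 4067 genes, 11.6% were higher and 11.1% lower.

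Proliferation genes were carried by some barcodes in both libraries. At least 5 of the 15 genes were detected in 7 of 28 control and 9 of 24 antibody barcodes, and in 5 of 25 and 7 of 20 marker-rich ones. Of 13 genes compared, 3 were at least 2-fold higher and 0 lower, with a median of 0.34. Of these 13, 1 reached 20 UMIs only through the antibody library and so had to differ. Of the other 12, 2 were higher, where 11.6% of all 4067 genes were. In the marker-rich barcodes 5 of 12 were higher with a median of 0.56, and without the deepest barcode of each library 6 of 12 with a median of 0.77. The list's median was -0.78 in fibroblasts and -0.33 outside the endothelium. Ube2c, of the mitotic ubiquitin machinery, stood at 1.48 (0.95 to 2.07), Cdk1, the mitotic kinase, at 1.04 (0.40 to 1.76) and Mki67 at 0.23 (-0.75 to 1.34). A single barcode gave 36.0% of the list's UMIs in control and 35.5% in the antibody library.

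**Figure D4:**
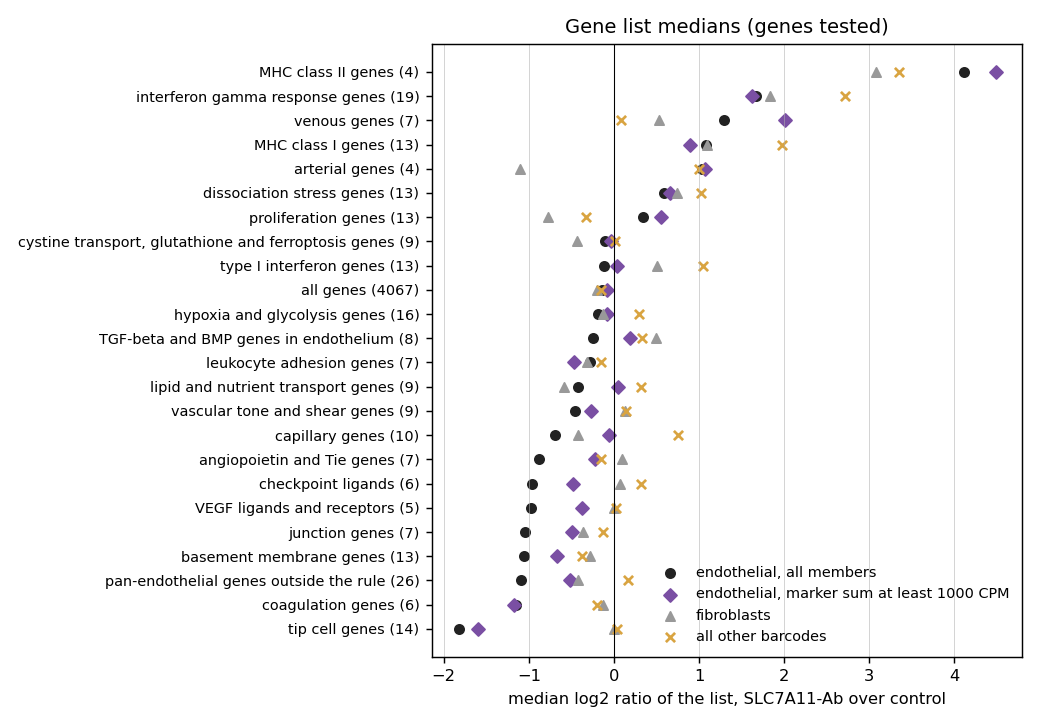
Median log2 ratio of each gene list, antibody over control (x axis), with the number of genes compared in parentheses, for endothelial barcodes (circles), marker-rich endothelial barcodes (diamonds), fibroblasts (triangles) and all barcodes outside the endothelium (crosses). Tip cell genes have the lowest endothelial median (-1.82), with fibroblasts at 0.00, where some of these genes were scarcely seen. Interferon gamma response genes have 1.66, with fibroblasts at 1.83. The 4 MHC class II genes drawn and 7 interferon gamma response genes reached the count minimum only through the antibody library, and 2 tip cell genes only through the control library.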

How the data were processed

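Single-cell RNA of 1 control and 1 antibody-treated tumour library was prepared with a droplet kit that reads transcript 3' ends (10x Genomics), as the labels' protocols state. The deposited files hold raw UMI counts per gene and barcode. The submitters' processing notes name Cell Ranger 7.2.0, mm10 and Seurat, without their roles. A gene missing from 1 table was taken as 0. The libraries held 129044329 and 143658800 UMIs. Members and gene lists were chosen with earlier results of these data known. Counts were summed per library and class without integration, removal of doublets or correction for free RNA. No test across samples was possible. Ratios needed at least 20 UMIs over both libraries. A gene that reached this number only through 1 library had to differ, and some lists without such a count given also held such genes. Genes named outside the lists had at least 50 UMIs and were the 20 furthest above fibroblasts and the 15 highest and 15 lowest filtered ratios. The filter asked for a UMI in at least 10% of the endothelial barcodes of 1 library. In the library where the gene was higher, it also asked for an endothelial level at or above that of all other barcodes. Genes with high ratios such as Cxcl10, Junb and Ier2 are therefore not among the 15. Other genes were examples chosen after their values were seen. The ratio script was tested on simulated data. Scrublet in scanpy 1.11.5 removed the highest scores (0.8% per 1000 barcodes) as an alternative. Alternatives changed the barcode rule, scaling, weighting, depth and count minimum. Python 3.11.15, numpy 2.4.6, scipy 1.17.1 and pandas 2.3.3 were used.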

Additional observations from a re-analysis of the deposited data

Results flagged for a closer look

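For 4 genes the endothelial barcodes and the fibroblasts moved in opposite directions between the libraries, each by at least 2-fold, and none of these differences could be tested across samples. Adm had a log2 ratio, antibody over control, of -3.85 in the endothelium and 1.10 in fibroblasts. Car4 had 3.46 and -2.08, on 5 and 101 endothelial and 20 and 6 fibroblast UMIs. Tek, the angiopoietin receptor Tie2, had -1.21 on 14 and 10 endothelial UMIs and 2.38 on 4 and 31 fibroblast UMIs. Mgp, a matrix protein of arteries and fibroblasts, had 1.62 and -3.08, but 1 barcode gave 94.8% of its antibody endothelial UMIs.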

How the results depend on the processing

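No paired analysis was possible because each treatment has 1 library. The endothelial share and its ratio to fibroblasts moved by less than their counting intervals under each alternative to the barcode rule. Counts of genes at least 2-fold higher and lower were 286 and 239 of 2921 in marker-rich barcodes, 40 and 35 of 366 in barcodes thinned to 1000 UMIs, 188 and 154 of 1710 at a minimum of 50 UMIs and 871 and 862 of 6549 at a minimum of 10. Without the deepest barcode of each library, a choice made after seeing the data, 357 genes were higher and 283 lower of 3194. Among the 428 genes at least 2-fold above fibroblasts in both libraries, also chosen afterwards, 19 were higher and 150 lower. The tip gene median was -1.02 with equal weight per barcode. After subtraction of the ratio over all barcodes outside the endothelium, 274 genes were higher and 466 lower of 4067. The medians were then -1.17 for interferon gamma response, -0.37 for MHC class I and 0.85 for MHC class II genes. The 4 class II genes compared reached the count minimum only through the antibody library, so 0.85 is not read as a result.

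Among named genes that were at least 2-fold higher or lower, the same subtraction reversed Cldn5 (-0.87), Sparcl1 (1.04), Ubd (-0.41), Cxcl9 (-1.17), Pfn1 (-1.13), Lrg1 (-1.04), Icam1 (-0.76), H2-K1 (-0.37), H2-D1 (-0.071), Tap1 (-1.14), H2-Aa (-0.36), H2-Ab1 (-0.57), Irf1 (-1.54), Gbp4 (-1.77), Iigp1 (-1.69), Fth1 (-0.021) and Angptl4 (-0.67), as their ratios outside the endothelium were larger or, for Sparcl1, lower. Of genes named within 2-fold, Ramp2 then stood at -2.63, B2m at -0.11 and Sele just above 0. Thinning reversed Nid2 (0.089), Plaur (-0.19), Afap1l1 (0.30), Nr2f2 (-0.19) and Cdk1 (-0.36), on fewer UMIs, equal weights reversed Pecam1 (0.0094), and marker-rich barcodes reversed Mgp (-1.99). With 52 barcodes, depth limits genes under 20 UMIs.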
